A study of Mus musculus with 27 samples.

Results

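The SLC22 family holds membrane transporters for organic anions, organic cations and zwitterions. Here 9 of its genes, Slc22a2, Slc22a4, Slc22a5, Slc22a6, Slc22a7, Slc22a8, Slc22a12, Slc22a13 and Slc22a18, were taken by their symbols from the 19392 genes of the expression table, and all 9 passed the filter on low values. The kidneys came from C57BL/6 wild-type mice in a model named uIRIx, in which the right kidney was removed and the pedicle of the left kidney was clamped. The 9 groups differed in ischemia time, which was 0 (sham), 16, 18, 20, 22, 24, 26, 28 or 30 min, with 3 left kidneys per group and 27 in all. The protocol given for every sample describes removal of the right kidney and lists the sham group as 0 min of clamping, and whether sham mice lost the right kidney is not stated separately. All mice were kept on a warming plate during surgery, and all left kidneys were collected after 24 h of reperfusion. The age of the mice is not given in the sources used here, and whole kidney tissue was sequenced, so every value below is an average over the cells of a kidney.

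Organic anion transporters (OATs) of the basolateral membrane of the proximal tubule take up drugs, toxins and metabolites from the blood in exchange for dicarboxylates, and apical exporters then pass them to the urine. Organic cation transporters (OCTs) take up positively charged compounds such as creatinine and metformin from the blood. Carnitine and ergothioneine transporters (OCTNs) and the apical urate exchangers of the same family work in the other direction and reclaim their substrates from the filtrate. The proximal tubule is also the segment of the nephron known to be most easily damaged by ischemia.

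Several of these genes lie beside each other in the genome. On build GRCm38, Slc22a8 (chr19:8591254-8611835) and Slc22a6 (chr19:8618039-8628299) are neighbours on the plus strand, with 6203 bases and no protein-coding gene between them. Slc22a5 (chr11:53864542-53891660) and Slc22a4 (chr11:53983123-54028090) share the minus strand with 1 gene of the same family, Slc22a21, between them. Slc22a12 (chr19:6535845-6543032) overlaps Nrxn2, which is read from the opposite strand, and Slc22a13 (chr9:119192974-119209098) lies inside the annotated span of Slc22a14 on the same strand. The other genes are Slc22a2 (chr17:12584132-12628488), Slc22a7 (chr17:46432183-46438457) and Slc22a18 (chr7:143473736-143499334), and none of them overlaps another annotated gene.

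The 250 bases before the start of transcription are shown for 4 genes, from the RefSeq promoter table of build GRCm38.p6, which matched 8 of the 9 genes (not Slc22a7). Slc22a6 and Slc22a8 are shown as the adjacent anion transporters whose levels separated late in the time course, Slc22a13 as the gene of this table with the largest fall, and Slc22a5 as one of the genes with the smallest late fall.
Slc22a6, chr19:8617746-8617995, plus strand: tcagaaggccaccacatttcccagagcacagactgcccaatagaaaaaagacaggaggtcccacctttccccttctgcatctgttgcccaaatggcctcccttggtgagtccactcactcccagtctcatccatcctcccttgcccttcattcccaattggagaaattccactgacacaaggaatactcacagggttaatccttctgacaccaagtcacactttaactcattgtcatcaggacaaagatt
Slc22a8, chr19:8592932-8593181, plus strand: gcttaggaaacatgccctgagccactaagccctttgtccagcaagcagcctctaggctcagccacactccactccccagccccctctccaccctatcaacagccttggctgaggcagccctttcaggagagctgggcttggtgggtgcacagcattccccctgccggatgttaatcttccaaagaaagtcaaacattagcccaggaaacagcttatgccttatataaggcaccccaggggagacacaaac
Slc22a13, chr9:119209106-119209355, minus strand: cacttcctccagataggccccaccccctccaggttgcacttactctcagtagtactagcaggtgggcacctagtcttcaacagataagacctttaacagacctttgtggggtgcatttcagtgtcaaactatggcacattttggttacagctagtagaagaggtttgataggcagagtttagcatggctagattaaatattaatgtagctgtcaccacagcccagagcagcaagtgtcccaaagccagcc
Slc22a5, chr11:53891704-53891953, minus strand: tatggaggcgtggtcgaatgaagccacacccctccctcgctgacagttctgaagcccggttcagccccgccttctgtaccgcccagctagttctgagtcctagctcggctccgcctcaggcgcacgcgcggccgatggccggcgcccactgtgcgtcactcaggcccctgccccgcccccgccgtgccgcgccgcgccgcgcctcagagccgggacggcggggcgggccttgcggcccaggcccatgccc
Both strands of the 300-base windows (with 50 bases after the start) were searched for CAAAGTCCA, a form of the HNF4A element. It was found in none of the 8 windows and in 0.475% of 32851 promoters of the same length, so no base is in capitals. The start used for Slc22a8 lies inside the longer span of the gene annotation. The windows of Slc22a5 and Slc22a4 were rich in G and C (72.7% and 69% of bases), against 47.7% to 55% in the others. The search is a description of these letters only.

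RNA was measured in FPKM, which corrects fragment counts for transcript length and library size, so that levels may be compared between genes. In sham kidneys Slc22a12 had the highest level, at 786 ± 86.4 FPKM (mean ± SD, n = 3 here and below unless stated). It was followed by Slc22a18 at 308 ± 11.8, Slc22a6 at 251 ± 7.25, Slc22a2 at 153 ± 16.8, Slc22a8 at 128 ± 16.4, Slc22a7 at 96.7 ± 10.8, Slc22a5 at 92.5 ± 17.1, Slc22a13 at 62.7 ± 0.828 and Slc22a4 at 19.4 ± 2.48 FPKM. The ranges of the 3 kidneys overlapped between the neighbours Slc22a2 and Slc22a8 and between Slc22a7 and Slc22a5, and did not overlap between the other neighbours in this order. After 30 min of ischemia the order from high to low was Slc22a12, Slc22a6, Slc22a18, Slc22a5, Slc22a2, Slc22a8, Slc22a4, Slc22a13 and Slc22a7. Overlap was then seen between Slc22a5 and Slc22a2, between Slc22a2 and Slc22a8, and between Slc22a13 and Slc22a7. Slc22a7 moved from the sixth place to the last, and Slc22a5 from the seventh to the fourth.

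The tissue label was checked against markers. Proximal tubule markers were abundant in sham kidneys (summed level 5929 to 6522 FPKM over 9 genes), and T cell markers were near 0 (0.13 to 2.06 FPKM over 2 genes). Sex is not part of the labels, and the 4 measured Y-linked genes were above 0 in all 27 kidneys, with none called between groups. Each kidney's FPKM summed to between 512453 and 554036. The read counts behind the values are unknown, so no counting error could be given and the spread between kidneys is the only error. For the tests, log2(FPKM + 1) was quantile normalized and fitted in limma with 1 mean per ischemia time over 18188 genes. Adjusted p-values are limma's, with the Benjamini-Hochberg correction over all these genes. A differentially expressed gene (DEG) had to change by more than 1 on the log2 scale, up or down, with adjusted p below 0.05. Besides each ischemia time against sham, the 18 kidneys from 16 to 26 min were compared with sham, and the 6 kidneys at 28 and 30 min with these 18, a grouping that follows earlier results of these data.

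**Figure D1:**
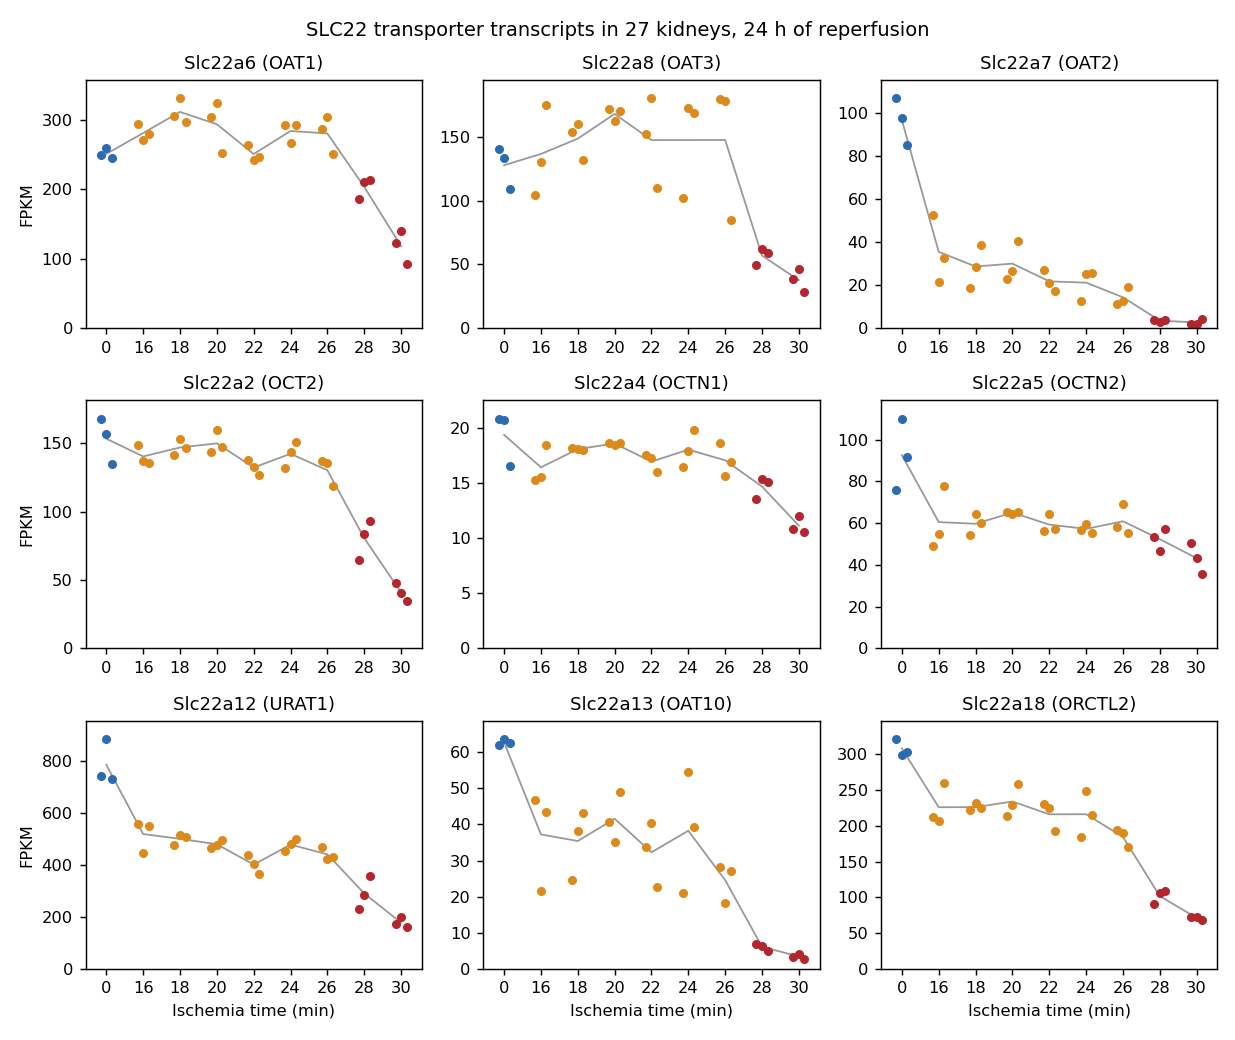
Level of each of the 9 SLC22 transcripts in FPKM (linear axis from 0) against ischemia time in min, 1 panel per gene. Each point is 1 kidney (blue 0 min, orange 16 to 26 min, red 28 and 30 min), and the line joins the means of 3 kidneys. Slc22a7, Slc22a12, Slc22a13 and Slc22a18 already lie below sham from 16 min on. The means of Slc22a6 and Slc22a8 stay near or above the sham mean until 26 min and fall at 28 and 30 min.

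Slc22a6 encodes OAT1, the classical transporter of para-aminohippurate at the basolateral membrane. Its level in sham kidneys was 248.46, 258.86 and 244.92 FPKM. From 16 to 26 min it ran from 242.33 to 331.12, with a median of 289.74 FPKM. The groups overlapped, and of these 18 kidneys 14 were above every sham kidney and 1 was below every sham kidney. At 28 min it was 185.16, 210.88 and 213.49 FPKM, and at 30 min 122.39, 139.09 and 92.18 FPKM, so that all 6 kidneys lay below every earlier one. The log2 fold change of 16 to 26 min against sham was 0.16 (SE 0.080, limma adjusted p = 0.117) and did not pass the test. That of 28 and 30 min against 16 to 26 min was -0.79 (SE 0.061, limma adjusted p = 1.64e-09), a fall that passed the test on p but not the fold threshold. In whole kidney RNA, fewer proximal tubule cells and less RNA per cell cannot be told apart, for Slc22a6 and for the other 8 genes.

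Slc22a8 encodes OAT3, which shares the basolateral membrane and many substrates with OAT1. The sham kidneys had 140.75, 133.78 and 109.42 FPKM. From 16 to 26 min the lowest kidney had 84.99, the median was 161.52 and the highest had 180.72 FPKM. Of these 18 kidneys, 12 were above every sham kidney and 3 were below every sham kidney. The spread was wide within single ischemia times, as at 26 min, where the kidneys had 180.33, 178.12 and 84.99 FPKM. The 28 min kidneys had 49.78, 61.69 and 59.04, and the 30 min kidneys 38.62, 46.09 and 28.07 FPKM, all below the lowest of the earlier kidneys. The log2 fold change was 0.17 (SE 0.197, limma adjusted p = 0.554) for 16 to 26 min against sham, with no call, and -1.63 (SE 0.149, limma adjusted p = 1.64e-08) for 28 and 30 min against 16 to 26 min, where Slc22a8 was a DEG.

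Slc22a7 encodes OAT2, a transporter of organic anions and of guanine nucleotides. It had 106.97, 97.77 and 85.37 FPKM in sham kidneys. Between 16 and 26 min it had 11.24 FPKM in the lowest kidney, a median of 24.01 and 52.39 FPKM in the highest, so all 18 kidneys lay below the sham range. It had 3.71, 2.98 and 3.54 FPKM at 28 min and 1.62, 1.95 and 4.05 FPKM at 30 min, all below the 18 kidneys before. At 16 min, the shortest ischemia time, Slc22a7 was already a DEG, with a log2 fold change of -1.53. Its log2 fold change was -2.03 (SE 0.251, limma adjusted p = 5.12e-06) for 16 to 26 min against sham and -2.64 (SE 0.189, limma adjusted p = 5.89e-10) for the late kidneys against 16 to 26 min. Its mean from 16 to 26 min was 26.0% of the sham mean, and that of 28 and 30 min was 3.08%. At these low late levels the added 1 FPKM makes the fold change smaller than the ratio of the levels.

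Slc22a2 encodes OCT2, the basolateral cation transporter that takes up creatinine. It had 167.97, 156.87 and 134.91 FPKM in sham kidneys and between 118.5 and 159.29 FPKM (median 139.385) from 16 to 26 min, so these groups overlapped. It had 64.74, 83.66 and 93.31 FPKM at 28 min and 47.83, 40.41 and 34.48 FPKM at 30 min. The late kidneys lay below all earlier ones, and the 30 min kidneys below those at 28 min. The first step was small, with a log2 fold change of -0.13 (SE 0.083, limma adjusted p = 0.234), and the second was -1.26 (SE 0.063, limma adjusted p = 5.88e-12), a DEG.

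Slc22a4 (OCTN1, known for carrying ergothioneine) had the lowest level of the 9 genes in sham kidneys and the smallest fall at 30 min. It had 20.88, 20.78 and 16.53 FPKM in sham kidneys and 15.27 to 19.81 FPKM (median 17.96) from 16 to 26 min. At 28 min it had 13.55, 15.43 and 15.13 FPKM and at 30 min 10.81, 12.06 and 10.58 FPKM, and 5 of these 6 kidneys lay below all of the 16 to 26 min kidneys. The log2 fold changes of the first and the second step were -0.22 (SE 0.073, limma adjusted p = 0.0231) and -0.45 (SE 0.055, limma adjusted p = 9.37e-07), neither past the fold threshold.

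Slc22a5 (OCTN2, the sodium-dependent transporter that reclaims carnitine) had 75.93, 110.05 and 91.59 FPKM in sham kidneys. It had 48.78 to 77.59 FPKM (median 58.815) from 16 to 26 min, and 17 of 18 of these kidneys were below the sham range. At 28 min it had 53.11, 46.5 and 57.29 FPKM and at 30 min 50.52, 43.17 and 35.81 FPKM, so that only 3 of the 6 late kidneys were below the 16 to 26 min range. Its log2 fold change was -0.63 (SE 0.116, limma adjusted p = 0.000244) for 16 to 26 min against sham and -0.32 (SE 0.088, limma adjusted p = 0.00463) for the late kidneys against 16 to 26 min. Slc22a5 was the single gene of the 9 with the larger of these estimates in the first step, and the difference between the steps was not tested.

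Slc22a12 encodes URAT1, the apical exchanger that reclaims urate. It had 741.35, 885.51 and 731.06 FPKM in sham kidneys and 364.47 to 559.07 FPKM (median 472.18) from 16 to 26 min, with all 18 kidneys below the sham range. The level was 229.16, 285.05 and 356.73 FPKM at 28 min and 172.57, 200.55 and 160.11 FPKM at 30 min, below all earlier kidneys. It fell by 0.79 on the log2 scale (SE 0.095, limma adjusted p = 3.85e-06) in the first step and by 0.98 (SE 0.071, limma adjusted p = 7.6e-10) in the second, which was just short of the fold threshold. The second fold change was -1.05 without normalization and -1.06 on the TPM scale, past the threshold. It was also past it without the second kidney at 16 min (-1.001), the third at 28 min (-1.04) or the second at 30 min (-1.01).

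Slc22a13 encodes OAT10, an apical exchanger of nicotinate and urate. The 3 sham kidneys were close together, at 62.11, 63.68 and 62.44 FPKM. From 16 to 26 min the values spread from 18.21 to 54.6 FPKM (median 36.685), all below sham. They were 6.97, 6.41 and 4.91 FPKM at 28 min and 3.35, 4.12 and 2.75 FPKM at 30 min, below all earlier kidneys. The first step was -0.97 (SE 0.240, limma adjusted p = 0.00307), short of the fold threshold, and the second -2.62 (SE 0.181, limma adjusted p = 3.61e-10), a DEG. Its reads cannot be told apart here from any that come from Slc22a14 where the annotated exons coincide, but the level listed for Slc22a14 itself was at most 0.39 FPKM from 16 to 26 min.

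Slc22a18 encodes a family member whose substrates are less settled and lies in an imprinted region. It had 321.51, 299.27 and 303.7 FPKM in sham kidneys and 169.79 to 259.6 FPKM (median 218.88) from 16 to 26 min, all 18 below sham. At 28 min it had 90.74, 105.81 and 108.51 FPKM and at 30 min 72.35, 72.71 and 68.38 FPKM, again with no overlap. It fell by 0.59 on the log2 scale (SE 0.072, limma adjusted p = 4.82e-06) and then by 1.29 (SE 0.055, limma adjusted p = 1.13e-12), and was a DEG in the second step.

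**Figure D2:**
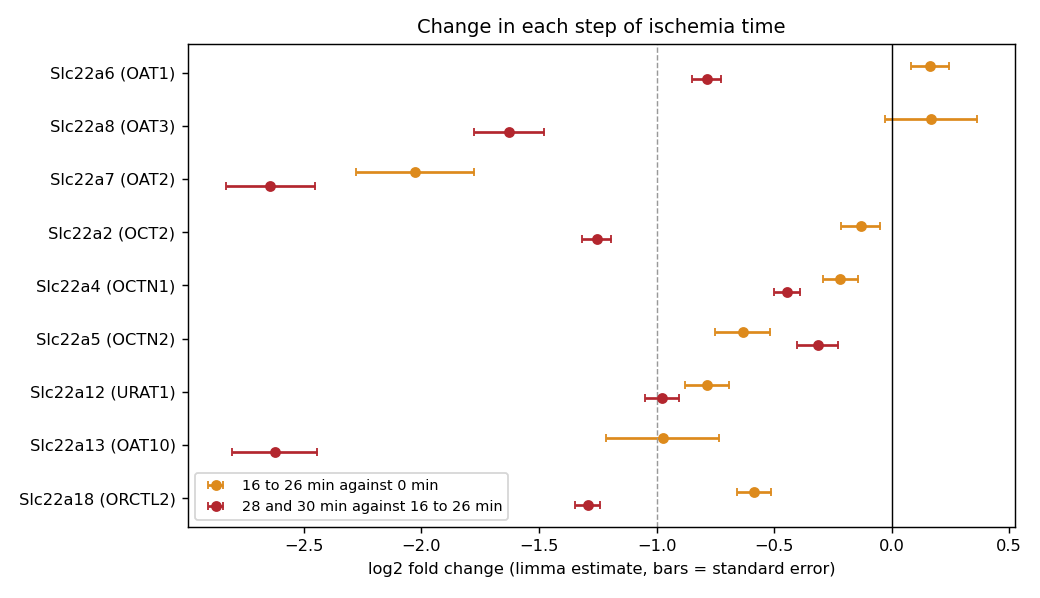
Log2 fold change (limma estimate, horizontal axis, bars are the standard error) of each of the 9 SLC22 genes for 16 to 26 min against 0 min (orange, 18 against 3 kidneys) and for 28 and 30 min against 16 to 26 min (red, 6 against 18 kidneys). The dashed line marks the fold threshold of -1. In the first step only Slc22a7 lies past it (-2.03), and in the second Slc22a2, Slc22a7, Slc22a8, Slc22a13 and Slc22a18 do.

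Counted by ischemia time, none of the 9 genes was higher than sham as a DEG at any time. Slc22a7 was the only DEG of the 9 at 16, 18, 20 and 24 min. At these times 0.979%, 1.09%, 0.962% and 1.15% of all tested genes were lower. At 22 min there were 3 (Slc22a7, Slc22a12 and Slc22a13, with 1.2% of all genes lower), and at 26 min 2 (Slc22a7 and Slc22a13, with 1.61% lower). The count at 28 min was 5 (Slc22a7, Slc22a8, Slc22a12, Slc22a13 and Slc22a18, background 4.21%), and at 30 min it was 8, all but Slc22a4 (background 5.59%). The fold by which the level at 30 min was below sham, on the scale of log2(FPKM + 1), was 28.9 for Slc22a7, 15.3 for Slc22a13, 4.31 for Slc22a18, 4.13 for Slc22a12, 3.59 for Slc22a2, 3.36 for Slc22a8, 2.10 for Slc22a5, 2.01 for Slc22a6 and 1.78 for Slc22a4. The calls of Slc22a5 and Slc22a6 at 30 min were both lost without the second sham kidney (-0.96 and -0.99) or without the third 30 min kidney (-0.95 and -0.87), which left 6. At 22 min the calls of Slc22a12 and Slc22a13 were both lost without the third 22 min kidney (-0.98 and -0.81), which left 1, and that of Slc22a12 was also lost without the second sham kidney (-0.98), which left 2. Slc22a13 was a second DEG at 16 min without the third kidney of that time (-1.05), at 18 min without the third (-1.08) and at 24 min without the second (-1.19). Slc22a2 was a sixth DEG at 28 min without the third sham kidney (-1.01) or the third 28 min kidney (-1.04). Slc22a7 at 16 min lost its call when the 6 kidneys compared were fitted alone (-1.55, limma adjusted p = 0.0790). All these comparisons use the same 3 sham kidneys.

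For 16 to 26 min against sham, 1 of the 9 genes was a lower DEG (1.17% of all genes) and 6 were lower by adjusted p alone (20.6% of all genes). Of these 6, Slc22a4 did not pass without normalization (limma adjusted p = 0.126), on the TPM scale (0.149), or without the first (0.186) or the second (0.176) sham kidney. The median log2 fold change of the 9 genes was -0.59, against -0.01 over all tested genes. Slc22a13 became the second DEG, at -1.0002 to -1.02, when any one of 5 kidneys was left out (the first or the third at 16 min, the third at 18 min, the second at 22 min or the second at 24 min). For 28 and 30 min against 16 to 26 min, 5 were lower DEGs (2.4% of all genes) and all 9 were lower by adjusted p alone (22.5% of all genes). Their median was -1.26, against 0.01 over all tested genes.

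The fall between 26 and 28 min was tested directly. Slc22a13 fell by 1.84 on the log2 scale (limma adjusted p = 0.000485), Slc22a7 by 1.74 (limma adjusted p = 0.00108) and Slc22a8 by 1.30 (limma adjusted p = 0.00162), and these 3 were DEGs (1.06% of all genes were lower). Slc22a18, Slc22a2, Slc22a12 and Slc22a6 fell by 0.88, 0.73, 0.63 and 0.44, which passed on adjusted p alone (8.52% of all genes were lower by adjusted p). Slc22a4 (-0.24, limma adjusted p = 0.0905) and Slc22a5 (-0.22, limma adjusted p = 0.362) did not pass. From 28 to 30 min none of the 9 was a DEG (0.649% of all genes were lower), while 5 were lower by limma's adjusted p (6.77% of all genes) and 7 had an unadjusted p under 0.05 (26.8% of all genes). Slc22a2 had the largest estimate there, -0.92, and became a DEG without the first 28 min kidney (-1.06) or the first 30 min kidney (-1.03). The estimates for Slc22a7 (-0.36) and Slc22a13 (-0.68), already at low levels by 28 min, did not pass on adjusted p. Those for Slc22a8 (-0.57) and Slc22a5 (-0.24), with means of 56.8 and 52.3 FPKM at 28 min, did not pass either.

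Within the 18 kidneys from 16 to 26 min, none of the 9 genes had a slope with ischemia time that passed limma's test (0.011% of all genes did), and 3 had an unadjusted p under 0.05 (8.32% of all genes did). Slc22a7 had the steepest slope, -0.11 on the log2 scale per min (limma adjusted p = 0.219), followed among these 3 by Slc22a12 (-0.03, limma adjusted p = 0.532) and Slc22a18 (-0.02, limma adjusted p = 0.463). Without the second 16 min kidney, which had 21.26 FPKM of Slc22a7 beside 52.39 and 32.65 in the others, the Slc22a7 slope was -0.13 per min and passed (limma adjusted p = 0.0399). Slc22a7 varied most between these 18 kidneys, the highest having 4.66 times the level of the lowest, followed by Slc22a13 (2.998 times) and Slc22a8 (2.13 times). The other genes varied by 1.30 to 1.59 times.

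Genes of 1 substrate class or 1 membrane were compared within each kidney, as the difference of their quantile normalized log2(FPKM + 1), in 5 pairs and both steps (10 exact permutation tests over kidneys, two-sided, adjusted together, of which 7 passed). For the adjacent genes Slc22a6 and Slc22a8, the change in their difference from sham to 16 to 26 min was -0.003 (95% interval from the same test -0.403 to 0.397, exact permutation p = 0.985), an interval that allows changes in either direction. At 28 and 30 min Slc22a6 then gained 0.84 on Slc22a8 (0.561 to 1.12, exact permutation p = 7.43e-06, the smallest this test can give, adjusted 2.48e-05). All 6 late differences were above those of the earlier 18 kidneys, though the nearest values touched when rounded (1.59). Slc22a6 also gained on Slc22a2, by 0.30 in the first step (exact permutation p = 0.0015, adjusted 0.00301) and by 0.47 in the second (exact permutation p = 7.43e-06, adjusted 2.48e-05).

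Slc22a7 lost 2.20 against Slc22a8 in the first step (exact permutation p = 0.000752, the smallest possible with 3 sham kidneys, adjusted 0.00188), and its difference fell by another 1.01 in the second (exact permutation p = 0.00249, adjusted 0.00415). Slc22a4 gained 0.42 on Slc22a5 in the first step (exact permutation p = 0.00376, adjusted 0.00537). In the second step the change was -0.13, with an interval of -0.292 to 0.028 (exact permutation p = 0.117, adjusted 0.146). The apical pair Slc22a12 and Slc22a13 did not pass in the first step (0.19, interval -0.281 to 0.669, exact permutation p = 0.431, adjusted 0.479), and in the second Slc22a12 gained 1.65 (1.29 to 2.01, exact permutation p = 7.43e-06, adjusted 2.48e-05). The count of 7 stayed at 7 under every setting in which these pairs were computed again.

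**Figure D3:**
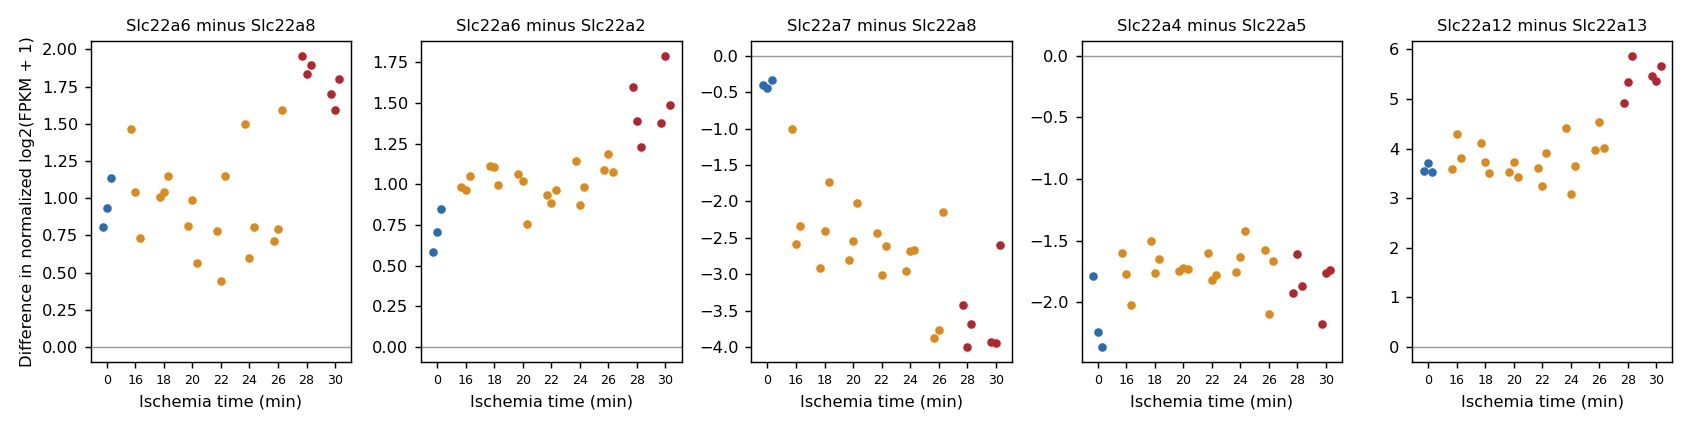
Difference between 2 SLC22 genes in quantile normalized log2(FPKM + 1) within each kidney (vertical axis, a separate scale in each panel) against ischemia time in min, for 5 pairs. Each point is 1 kidney (blue 0 min, orange 16 to 26 min, red 28 and 30 min). The Slc22a6 minus Slc22a8 difference lies between 0.44 and 1.59 in the 16 to 26 min kidneys and between 1.59 and 1.96 at 28 and 30 min, while that of Slc22a4 and Slc22a5 overlaps between these groups.

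Summed over the 9 genes, the level was 1897 ± 124 FPKM in sham kidneys. It was between 67.4% and 78.0% of this at the times from 16 to 26 min, 42.6% at 28 min (809 ± 108 FPKM) and 26.6% at 30 min (506 ± 63.1 FPKM). The make-up of this sum also changed. Slc22a12 made up 41.4% of the sum in sham kidneys, 33.6% from 16 to 26 min and 35.2% at 30 min. Slc22a6 made up 13.2% in sham kidneys, 20.3% from 16 to 26 min, and 25.2% at 28 min and 23.2% at 30 min, although its own level fell late. Slc22a7 went from 5.10% in sham kidneys to 0.529% at 30 min and Slc22a13 from 3.31% to 0.670%, while Slc22a5 went from 4.87% to 8.54%. Shares sum to a fixed total, so a gene that fell less than the others gained.

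**Figure D4:**
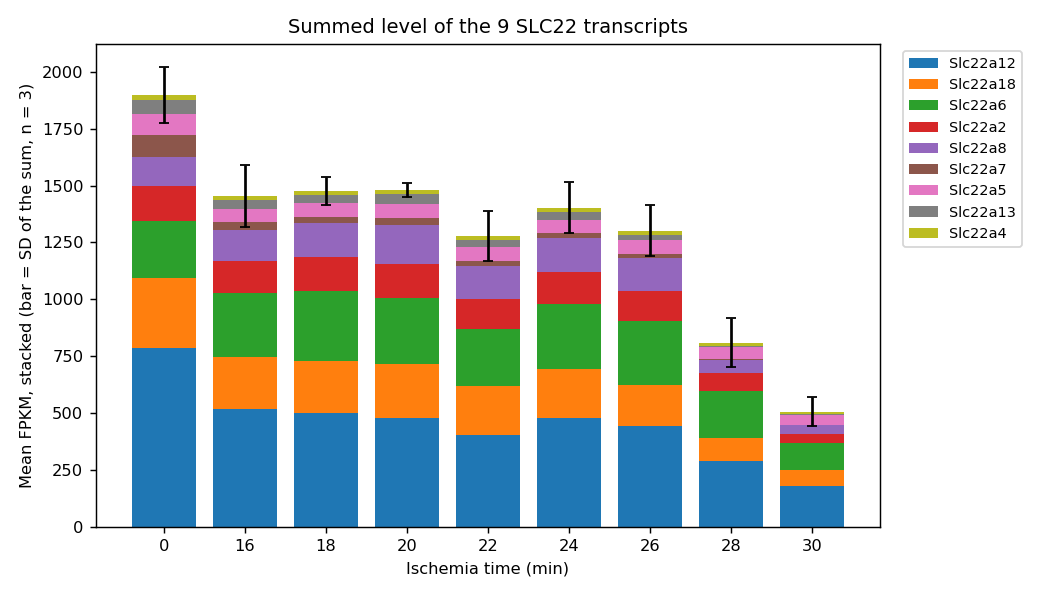
Mean FPKM of the 9 SLC22 genes stacked by gene (vertical axis from 0) at each ischemia time in min. The bar is the SD of the sum over 3 kidneys. The sum steps down from 1897 FPKM at 0 min to a band of 1278 to 1481 FPKM at 16 to 26 min, then to 809 FPKM at 28 min and 506 FPKM at 30 min.

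The levels of the 9 genes were also compared across all 27 kidneys, as a description, since all share the course of ischemia. Pearson's r between genes was highest for Slc22a13 and Slc22a18 (0.970) and lowest for Slc22a5 and Slc22a6 (0.485). Within the 18 kidneys from 16 to 26 min, the highest r was that of Slc22a7 and Slc22a13 (0.785). The lowest there was that of Slc22a6 and Slc22a13 (-0.193), which had an r of 0.764 over all 27 kidneys. Among 12336 candidate genes, the one most like each was Bphl for Slc22a18 (r = 0.990), A4gnt for Slc22a13 (0.989), Serpinf2 for Slc22a2 (0.988), Akr1c14 for Slc22a7 (0.983), Ces1d for Slc22a8 (0.977), Gm11992 for Slc22a12 (0.976), Slc13a3 for Slc22a6 (0.967), Tbc1d13 for Slc22a4 (0.946) and Slc30a9 for Slc22a5 (0.941), each over 27 kidneys. The second most like Slc22a13 was another gene of the family, Slc22a19 (0.987).

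The other SLC22 genes were read from a list of 16, of which 14 were tested. For 28 and 30 min against 16 to 26 min, 6 of 14 were lower DEGs (2.4% of all genes were) and none was higher, with a median log2 fold change of -0.76. The 6 were Slc22a22 (a prostaglandin transporter, -3.27), Slc22a19 (-2.77), Slc22a28 (-2.48), Slc22a30 (-2.35), Slc22a26 (-1.47) and Slc22a29 (-1.29). Slc22a26 to Slc22a30 and Slc22a19 are near copies on chromosome 19, so reads may be split between them and their single values are uncertain. For 16 to 26 min against sham, 2 were lower DEGs (1.17% of all genes were), Slc22a26 (-2.43) and Slc22a19 (-1.43). Slc22a21, between Slc22a5 and Slc22a4, rose by 0.44 (limma adjusted p = 8.52e-06) at a low level of 1.34 to 2.57 FPKM in the 16 to 26 min kidneys and 2.18 to 3.87 FPKM in the late ones.

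Partners of organic anion and cation transport were counted in the same second step, again beside 2.4% of all genes as lower DEGs. Slc13a2 and Slc13a3, which supply the dicarboxylates that OAT1 and OAT3 exchange, were both lower DEGs (-1.18 and -1.13), with no DEG among them in the first step. Slc47a1 (MATE1), the apical exporter that works in series with OCT2, fell by 0.41 (limma adjusted p = 9.44e-05) without passing the fold threshold, and Slc47a2 was at most 0.27 FPKM in the 16 to 26 min kidneys. None of 5 apical ABC exporters was a DEG, and their median was 0.25. Abcc4, an exporter of organic anions, rose by 0.41 (limma adjusted p = 1.46e-05). Of 4 urate and related anion transporters, Slc17a3 was a lower DEG (-1.35), Slc17a1 fell by 0.60 (limma adjusted p = 7.13e-07), and Slc2a9 had a value of -0.06 (limma adjusted p = 0.476).

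Among 6 organic anion transporting polypeptides, Slco1a1 (-1.53) and Slco4c1 (-1.42) were lower DEGs in the second step and in the first (-1.41 and -1.004), and the prostaglandin transporter Slco2a1 rose by 0.86 (limma adjusted p = 2.12e-06) without passing the fold threshold. Of 7 scaffolds and nuclear factors, Pdzk1, the scaffold that holds URAT1 and OCTNs at the apical membrane, was a lower DEG in the second step (-1.21). The factor Hnf4a fell by 0.21 (limma adjusted p = 0.00316), short of the fold threshold. None of 8 genes of carnitine handling was a DEG in either step. In the second step their median was -0.23. Crot (-0.80), Aldh9a1 (-0.62), Tmlhe (-0.39), Bbox1 (-0.27) and Crat (-0.19) were lower by adjusted p (22.5% of all genes were). Cpt1a (0.44) and Slc25a20 (0.35) were higher by adjusted p, and Cpt2 (0.08) did not pass.

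**Figure D5:**
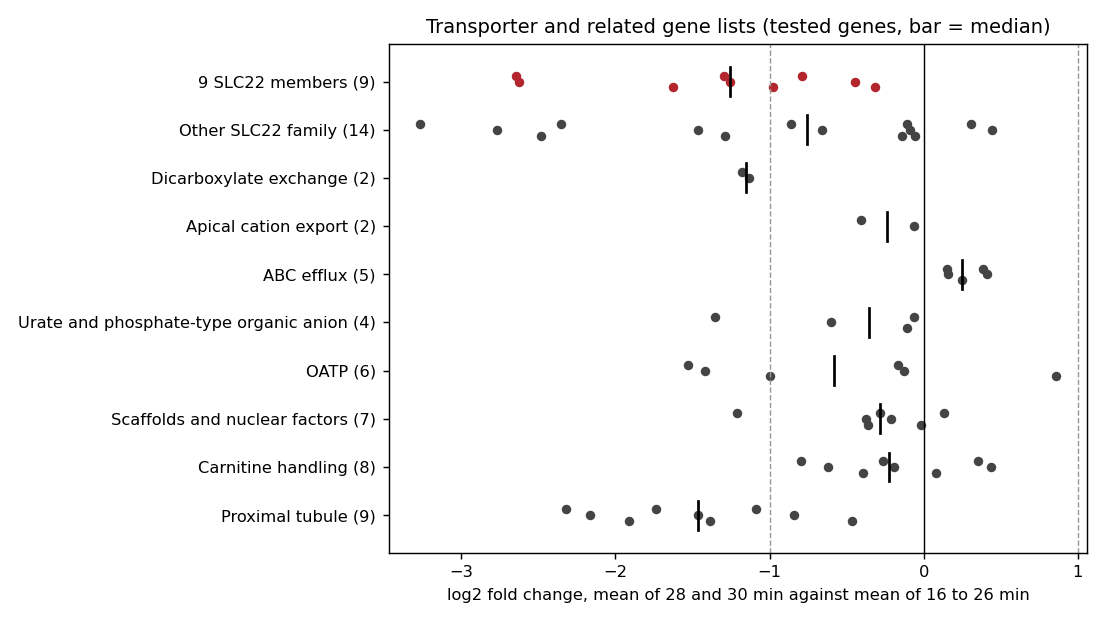
Log2 fold change of 28 and 30 min against 16 to 26 min (horizontal axis) for the tested genes of each list, with the number of tested genes in brackets. Each point is 1 gene, black bars are the medians of the lists, red points are the 9 SLC22 genes, and dashed lines mark the fold threshold. The medians are -1.26 for the 9 SLC22 genes, -0.76 for the other SLC22 genes, 0.25 for ABC efflux and -1.47 for proximal tubule markers.

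Markers of the proximal tubule were also lower in the second step. Of 9 markers, 7 were lower DEGs in the second step (2.4% of all genes, median of the markers -1.47) and 1 in the first (1.17% of all genes, median of the markers -0.33). Slc5a2 (-0.47) and Slc5a12 (-0.84) were short of the fold threshold in the second step. In the first step Slc5a2 (0.34) and Miox (0.14) had estimates above 0, without a call. The summed level of the 9 markers was 5929 to 6522 FPKM in sham kidneys, 3592 to 6720 from 16 to 26 min, 1946 to 2261 at 28 min and 1228 to 1423 FPKM at 30 min, and none of them was at 0. Injury markers went the other way, with a sum over 5 genes of 15.8 to 90.1 FPKM in sham kidneys. Their sum was 70.7 to 1218 FPKM from 16 to 26 min and 2518 to 4918 FPKM at 30 min. Of these 5, 4 were higher DEGs in the second step (1.27% of all genes were). In the first step 3 of the 5 were higher DEGs (327 of all 18188 tested genes were), Havcr1 (5.57), Lcn2 (3.27) and Krt20 (2.82). For the other lists, the second step held 2 of 3 lower DEGs among thick ascending limb markers, 1 of 2 for the distal convoluted tubule, 1 of 3 for intercalated cells and 1 of 3 for fibroblasts, and 2 of 3 higher DEGs for neutrophils. There was no second-step DEG for principal cells, podocytes, endothelium, macrophages or T cells. In the first step, Slc12a1 (thick ascending limb, -1.24) and Pvalb (distal convoluted tubule, -1.38) were lower DEGs of these lists (1.17% of all genes were). The fibroblast markers Col1a1 (3.16) and Col3a1 (3.03), 2 of 3 on their list, were higher DEGs in that step. Of 3 macrophage markers, Cd68 (2.26) was a higher DEG in the first step, and the other 2 had estimates below 0. These were Csf1r (-0.58, limma adjusted p = 0.00276) and Adgre1 (-0.08, limma adjusted p = 0.648), neither of them a DEG. Of all 18188 tested genes, 327 were higher DEGs in the first step. The part of these changes in the SLC22 values was not tested.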

How the data were processed

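RNA-Seq was done on the left kidneys of 27 mice, 3 per ischemia time, as the labels group them. The authors deposited 1 FPKM value per gene symbol and kidney, linear and rounded to 2 decimals, which their methods call RPKM. The submitters' processing notes name Bowtie2, RSEM, DESeq2 and the build GRCm38.p6, with no versions or roles. Depth is unknown.

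Values were taken as log2(FPKM + 1), quantile normalized between kidneys, and fitted in limma 3.58.1 (empirical Bayes, R 4.3.3), each ischemia time having its own mean. Of 19392 genes, 18188 exceeded 0 FPKM in 3 or more kidneys and were tested. DEG thresholds follow the study's methods. Pairs of genes were compared with exact permutation tests in Python 3.11.15, and figures were drawn with matplotlib 3.10.9. The limma and permutation steps were tested on simulated data. Coordinates and overlaps came from GENCODE annotation of GRCm38, and promoters from RefSeq. Likeness was Pearson's r over 27 kidneys. The labels give each kidney as a separate sample of its group and no batch, so p-values measure the spread between these kidneys. No replicate block was used.

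The 9 genes, the gene lists and the grouping of ischemia times were chosen with earlier results of these data known. All 9 genes are named, and others only from the lists or as the most like genes. Alternatives were a pseudocount of 0.1 FPKM, no normalization, rescaling to a constant sum (TPM), a filter of 1 FPKM in 3 kidneys, no filter, a trend in eBayes, a replicate block, a fit of the compared groups alone, and leaving out each kidney in turn. Some items are not reported here.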

Additional observations from a re-analysis of the deposited data

How the results depend on the processing

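Every one of the 9 SLC22 genes kept its direction in both steps (16 to 26 min against sham, 28 and 30 min against 16 to 26 min) under all 8 alternatives and with each kidney left out. The number of lower DEGs among them, 5 in the second step and 1 in the first, stayed at 5 to 6 and 1 to 2. At 16 min against sham it was 0 when only these 6 kidneys were fitted, as Slc22a7 (-1.55) then had a limma adjusted p of 0.0790. At 22 min it was 1 without normalization and 1 on the TPM scale, since Slc22a12 (-0.97 in both) and Slc22a13 (-0.98 and -0.99) were then just short of the fold threshold. When kidneys were left out one at a time, the count was 1 to 2 at 16, 18 and 24 min and for 16 to 26 min against sham, 1 to 3 at 22 min, 0 to 1 for 30 against 28 min, and 0 to 1 for slopes within 16 to 26 min. The limma adjusted p of Slc22a4 in the first step (0.0231) was 0.126 without normalization and 0.149 on the TPM scale, and ran from 0.00245 to 0.186 with kidneys left out, so that it passed in some of these settings and not in others. In a leave-out, the group with 2 kidneys takes its spread from the fit of all groups.

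The replicate numbers showed no common pairing of the kidneys. Over 108 pairs of same-numbered kidneys of different groups, the deviations from the group means had a mean correlation of 0.00868, with 25 pairs over 0.1. Single pairs ran from -0.416 to 0.480, and the mean for pairs with different numbers was -0.00455. A pairing shared by only some groups could average out, so this mean cannot exclude it. With a replicate block the counts were as without it (8 at 30 min, 5 in the second step, 1 in the first, 3 for 28 against 26 min).

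The scaling moved the median of all genes by at most 0.07 on the log2 scale. Of all DEGs in the first step, 327 were higher and 212 lower, against 551 and 202 on the TPM scale and 407 and 181 without normalization, and 661 and 437 with a pseudocount of 0.1 FPKM. In the second step 231 were higher and 436 lower, against 495 and 755 with that pseudocount, while the counts among the 9 SLC22 genes were the same. With no read counts, the precision of low values such as late Slc22a7 cannot be given.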
